A study of Rattus norvegicus with 15 samples.

Results

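The comparison set 3 arrays of rat spermatogonial stem cell cultures that had GDNF back for 8 h against 3 control arrays that never lost it, 6 of the 15 arrays of the series, chosen by their titles. Spermatogonial stem cells are the germline stem cells of the testis, and the highly enriched cultures had expanded for 1 month in defined serum-free medium with GDNF, glial cell line-derived neurotrophic factor. Control cells were taken in that medium, before any withdrawal. The 8 h cells went 18 h without GDNF and were then given it again for 8 h. The 3 arrays of 18 h withdrawal alone served to say what had been lost, and the arrays at 2 h and 4 h of replacement appear as values and in the shared estimate of spread. Every group had 3 independent cultures, and the strain and age of the rats are not stated in the sources used here. No control kept in GDNF until the end of the replacement is analysed here, so time in culture and handling cannot be told apart from the treatment. The comparison asks which transcripts were still away from their starting level after 8 h, on the side to which withdrawal had moved them (not recovered) or on the opposite side (overshot).

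GDNF is made by somatic cells of the testis and acts on the undifferentiated spermatogonia through the co-receptor GFRA1 and the receptor tyrosine kinase RET. RET feeds the RAS to ERK, PI3K to AKT and SRC family kinase routes, which switch on early transcription factors, set off feedback inhibitors such as the Sprouty proteins, and keep FOXO factors out of the nucleus. In these stem cells GDNF is known for maintaining self-renewal, in part through transcription regulators such as BCL6B, ETV5 and ID4.

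The array held 31099 probe sets, of which 15856 had an intensity of at least 16 on 3 or more of the 15 arrays and were tested. Of those, 12317 carried 1 gene symbol and stood for 9005 named genes, each read from its brightest tested probe set. Intensities are comparable between arrays for 1 probe set but not between genes. Between 50.1% and 50.4% of probe sets per array reached 16, no arrays were identical. With 3 arrays a group, precision is limited by their number, and the median 95% interval of a log2 change was 0.18 to either side. On bulk arrays fewer cells of a type and less RNA per cell cannot be told apart. Hybridization spikes and the 3 prime to 5 prime difference of GAPDH did not overlap between the groups, and the mean log2 intensity of the spikes was 9.82 in control and 10.3 at 8 h (exact two-sided permutation test, p = 0.1, the smallest that 3 against 3 allows). Their part in the results was not tested.

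After 8 h of GDNF, 1953 probe sets differed from control at an adjusted p under 0.05 (limma, Benjamini-Hochberg over all tested), 12.3% of those tested. Of these, 766 were higher and 1187 lower. Centring each array on its median turned that split to 1028 higher and 939 lower, and quantile normalization to 930 and 1062, so the excess of lower calls depends on the scaling. The changes were mostly small, with a median size of 0.33 on the log2 scale, and 62 probe sets were at least 2-fold higher and 26 at least 2-fold lower. Among named genes 439 (4.88%) were called higher and 830 (9.22%) lower. The 3 arrays of each group did not overlap for 4783 probe sets, 30.2% of those tested. Genes named below for the largest rises and falls were chosen among those without overlap. Their separation was fixed by that choice and adds no support. After withdrawal alone, 3342 probe sets (21.1%) had differed from the same controls, and among named genes 1238 (13.7%) were higher and 973 (10.8%) lower.

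Set against withdrawal, the calls at 8 h fell into 3 classes. Of the 1953 probe sets, 699 (35.8%) had not recovered, 163 (8.35%) had overshot, and 1091 (55.9%) were not called after withdrawal. A further 2480 probe sets were called after withdrawal and not at 8 h, which is 74.2% of the 3342. Not being called does not show a return to the exact level. For 2348 of the 2480 (94.7%) the 95% interval at 8 h lay wholly within 1.5-fold of control. That share cannot show a return, because most withdrawal changes were themselves under 1.5-fold. Of the 3342 called after withdrawal, 173 were at least 1.5-fold higher and 361 at least 1.5-fold lower. Both comparisons use the same 3 control arrays, so a class is a description of the 3 group means and no independent support for either change.

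A larger share of falls than of rises had not recovered, as counted in probe sets. Of the 1533 that fell on withdrawal 436 (28.4%) had not recovered, 70 (4.57%) had overshot and 1027 (67.0%) were not called at 8 h. Of the 1809 that rose 263 (14.5%) had not recovered, 93 (5.14%) had overshot and 1453 (80.3%) were not called. Among the 122 that fell at least 2-fold, 65 (53.3%) had not recovered, and among the 21 that rose at least 2-fold, 7 (33.3%) had not. The difference between falls and rises was not tested, and with each array centred on its median 321 unrecovered probe sets were higher and 385 lower.

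**Figure D1:**
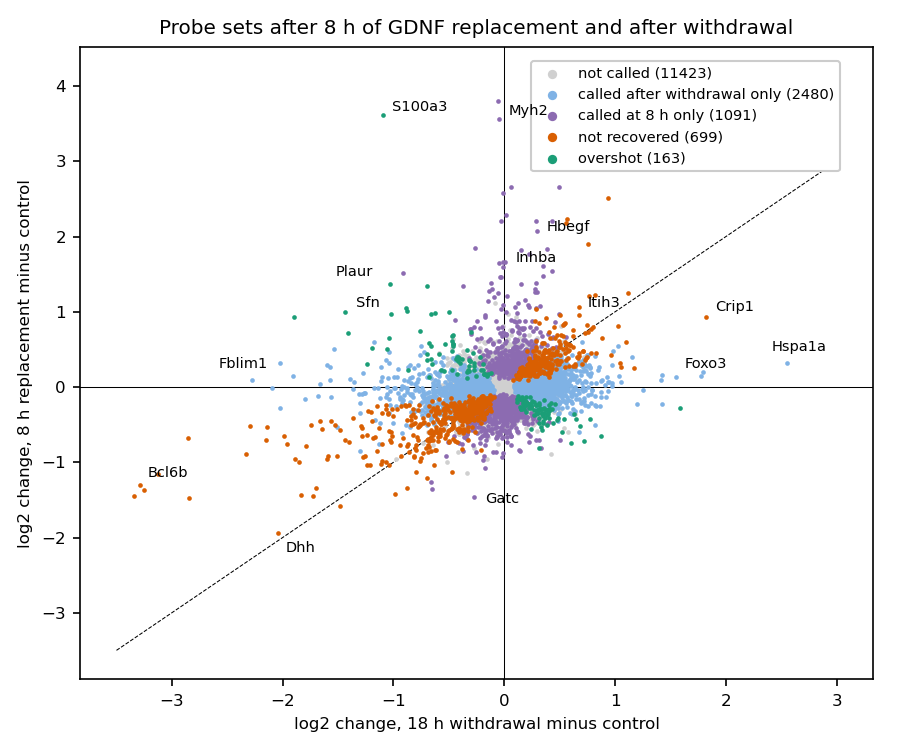
Each point is 1 of the 15856 tested probe sets, placed by its log2 change from control after 18 h of withdrawal (x axis) and after 8 h of replacement (y axis) and coloured by class; the dashed line marks equal changes. Bcl6b lies above the dashed line at the lower left, Dhh beside it, S100a3 and Myh2 at the top, and the 2480 probe sets called after withdrawal only spread along the horizontal line at 0.

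Among genes that stayed low, Bcl6b, a transcriptional repressor known to support the maintenance of spermatogonial stem cells, regained only part of its level. Control arrays read 1571, 1547 and 1647, withdrawal brought the mean to 164 ± 26.4 (SD, n = 3), and the 8 h arrays read 665, 682 and 583. All 8 h arrays lay below all controls, which was required of the largest falls and adds no support. Bcl6b was 2.47-fold lower than control at 8 h (log2 change -1.31 ± 0.11 SE, adjusted p = 2.46e-06, limma), with 39.7% of the log2 change of withdrawal left. The mean had been 668 at 4 h, so the level at 8 h was no higher than at 4 h.

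Dhh, the gene of the hedgehog ligand that Sertoli cells send to neighbouring cells, had not come back. Its control arrays read 62.8, 66.9 and 63.3 and its 8 h arrays 18.6, 15.7 and 16. The 8 h arrays lay at the low-value level of 16, as did the withdrawal arrays (15.6 ± 0.0954, SD, n = 3). The log2 change was -1.94 ± 0.08 (SE, adjusted p = 8.28e-09), and 94.9% of the withdrawal change was left. The 250 bases before the RefSeq start of Dhh (GRCr8, chr7:131935353-131935602, minus strand) are shown because this gene had the largest unrecovered fall by the rule for named genes, with 4 copies of the SP/KLF motif GGGCGG, on either strand, in capitals.

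Dhh: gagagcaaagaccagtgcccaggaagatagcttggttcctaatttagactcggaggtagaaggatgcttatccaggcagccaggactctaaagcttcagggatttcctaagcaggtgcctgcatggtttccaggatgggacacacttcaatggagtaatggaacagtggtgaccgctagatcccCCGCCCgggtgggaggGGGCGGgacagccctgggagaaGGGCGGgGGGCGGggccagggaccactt

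The same motif occurs in 30.5% of the 33469 promoters of the table over the same length, so it is common. The window of Inka2 (chr2:195873367-195873616, plus strand) held none of the 7 motifs searched, and that of Nr1h3 (chr3:97623230-97623479, minus strand), which lies inside the annotated span of the gene, held 1 copy of the FOXO motif TGTTTAC, found in 3.21% of promoters. A match is a run of letters and not a measured site.

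Other genes that stayed low after a large fall came from several functions. Nr1h3, which encodes the oxysterol receptor LXR alpha, read 19.9, 27.3 and 52.4 in control and 9.65, 9.90 and 11.3 at 8 h. The groups did not overlap, but the controls differed widely and the 8 h arrays were under 16. Its log2 change was -1.58 ± 0.25 (SE, adjusted p = 0.000922), or -0.93 when every lower value was raised to 16. Inka2, an inhibitor of the kinase PAK4, was 2.72-fold lower (66.4 ± 13.3 in control, 24.3 ± 4.73 at 8 h, SD, n = 3, adjusted p = 2.23e-05). Cyp2c23, an arachidonic acid epoxygenase, was 2.72-fold lower as well, from 36.5 ± 6.81 to 13.4 ± 1.94. Its 8 h mean was under 16, so the size of this fall is poorly measured. Hoxc5, a homeobox gene, read 185, 109 and 156 in control and 47.1, 64.2 and 63.9 at 8 h, a log2 change of -1.34 ± 0.21 (SE, adjusted p = 0.000814).

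Some genes had a mean further from control at 8 h than after withdrawal. Col25a1, which encodes a membrane-bound collagen, was at 374 ± 30.4 in control, 204 ± 20.1 after withdrawal and 148 ± 17.1 at 8 h (SD, n = 3). Its arrays at 8 h read 139, 168 and 137, all below the lowest control of 354, which its choice among genes without overlap required. The log2 change at 8 h against control was -1.34 ± 0.10 (SE, adjusted p = 5.24e-07), which is no test of 8 h against withdrawal. Flvcr2, a membrane transporter of the FLVCR family, fell from 70.1 ± 2.07 to 35.4 ± 2.25 after withdrawal and stood at 26.1 ± 0.108 at 8 h. Among all 699 probe sets that had not recovered, the 8 h mean lay between control and withdrawal for 388 and at or past the withdrawal mean for 311, of which 180 were lower and 131 higher than control. These counts compare means only, with no threshold on the difference between 8 h and withdrawal. The median share of the withdrawal change that was left was 95.7%. The class requires a call at 8 h, which leaves out probe sets with little change left, so this share is raised by the choice.

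Genes that rose on withdrawal and stayed high changed less. Itih3, a heavy chain of the inter-alpha-trypsin inhibitor that binds hyaluronan, read 151, 143 and 169 in control and 326, 273 and 299.8 at 8 h, with 246 ± 8.04 after withdrawal. Every 8 h array lay above every control, and the log2 change was 0.96 ± 0.08 (SE, adjusted p = 1.76e-06). Crip1, a small LIM-domain protein, had risen to 194 ± 29.2 and was still at 104 ± 5.63 at 8 h against 54.9 ± 9.29 in control, so 51.0% of its change was left. Bcr was 1.76-fold higher (170.3 ± 19.2 in control, 298.5 ± 5.76 at 8 h, adjusted p = 0.000115), and Ifi30, a lysosomal thiol reductase, 1.66-fold higher (192 ± 17.1, 318 ± 3.67, adjusted p = 5.42e-05). Pgbd5, derived from a piggyBac transposase, had a log2 change of 0.83 ± 0.16 (SE, adjusted p = 0.00319). For Prss46, a serine protease gene, the log2 change was 0.68 ± 0.17 (SE, adjusted p = 0.0149), which passed 0.05 without 8 h replicate 1 (adjusted p = 0.0662) or control replicate 2 (0.0516).

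**Figure D2:**
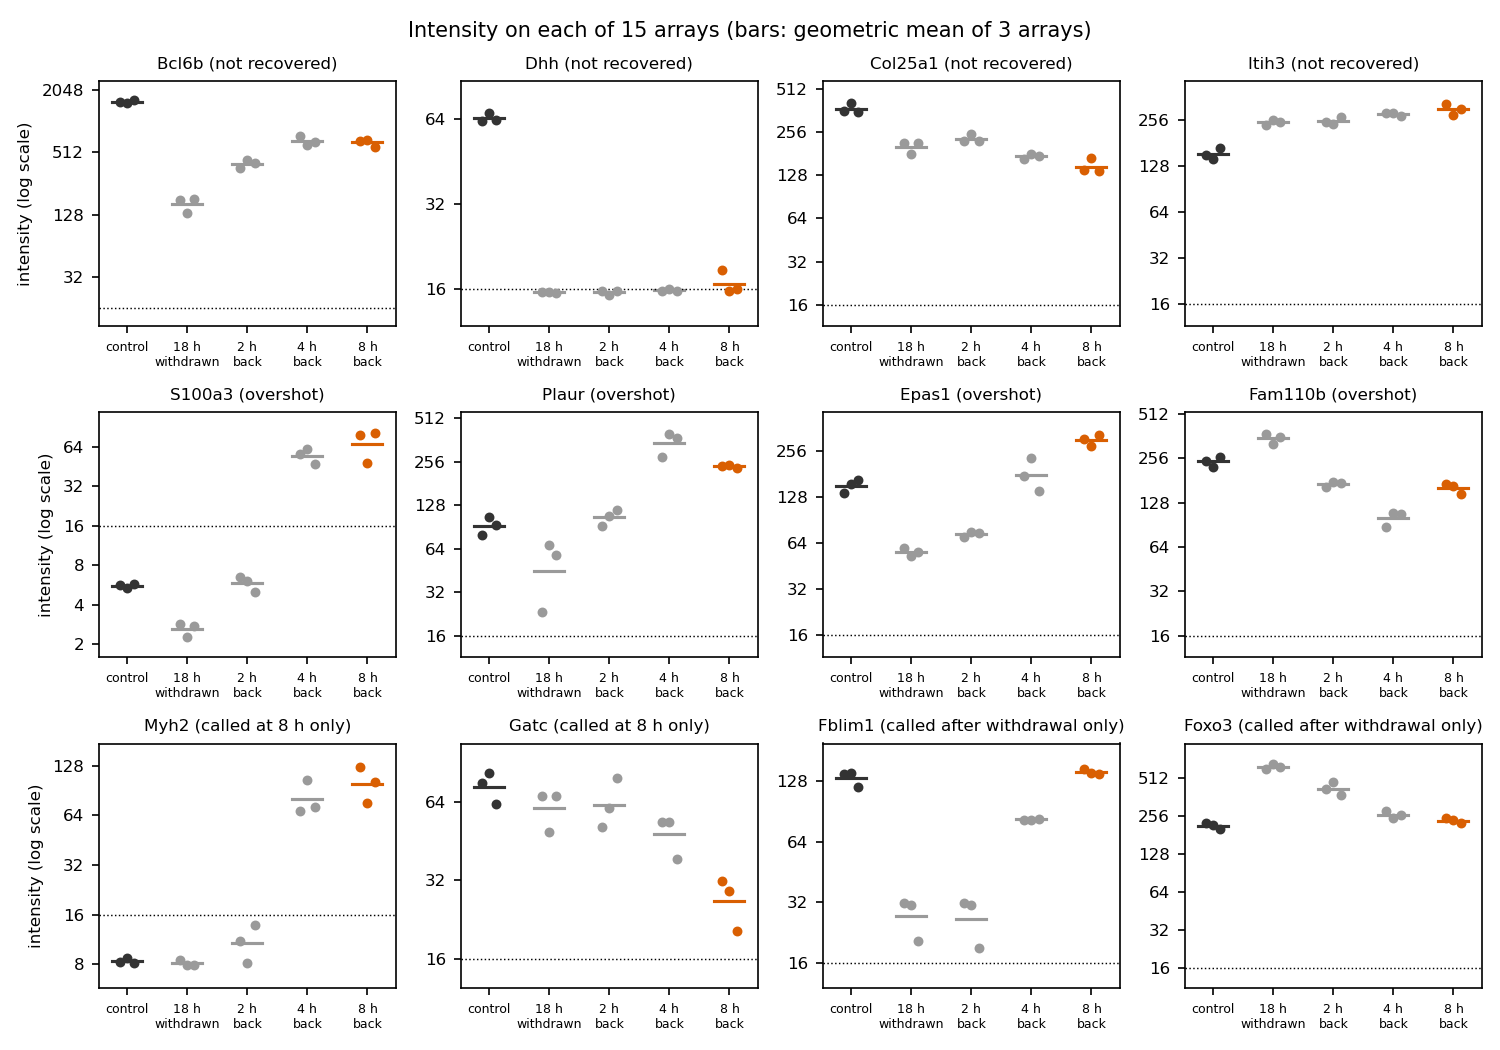
Intensity on each of the 15 arrays for 12 named genes, on a log scale, with control arrays in black, 8 h arrays in orange, the other groups in grey, a bar at the geometric mean of 3 arrays and a dotted line at the low-value level of 16. Dhh stays at the dotted line at 8 h, Bcl6b comes back to between 583 and 682, and S100a3 and Myh2 are under 16 in every control array and over it at 8 h.

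Overshooting genes had fallen on withdrawal and stood above control at 8 h, or the reverse. S100a3, a calcium-binding S100 protein, had the largest rise at 8 h among the genes named by the rule. Its control arrays read 5.60, 5.30 and 5.77, withdrawal arrays averaged 2.61 ± 0.304 (SD, n = 3), and 8 h arrays read 78.9, 48.5 and 81.8. Control and withdrawal levels are both under 16, so the fall on withdrawal is between levels that the array measures poorly. The log2 change at 8 h was 3.61 ± 0.18 (SE, adjusted p = 1.99e-08), and 2.08 with a floor at 16.

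Gfra3, the co-receptor of the GDNF family for the ligand artemin, was also classed as overshot, at low intensity. It read 13.7, 13.1 and 13.1 in control and 47.1, 34.9 and 23.1 at 8 h, with a log2 change of 1.34 ± 0.19 (SE, adjusted p = 0.000302), or 1.07 with the floor at 16. The 8 h arrays did not overlap with the controls but differed widely among themselves. All controls were under 16, so the fall of Gfra3 on withdrawal also lies between levels that the array measures poorly.

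Plaur is the receptor of the urokinase plasminogen activator. Its control arrays read 79.3, 106 and 92.8 and its 8 h arrays 239, 244 and 231, with 49.8 ± 23.2 after withdrawal, where the spread was wide. The 8 h arrays agreed closely and lay above every control, which was required of the largest rises. The log2 change was 1.37 ± 0.28 (SE, adjusted p = 0.00513). Epas1, which encodes the hypoxia-inducible factor HIF-2 alpha, read 137, 157 and 165 in control, 56.4 ± 3.37 after withdrawal and 308, 279.6 and 329.6 at 8 h. That is a 2.00-fold rise over control (log2 change 1.00 ± 0.14 SE, adjusted p = 0.000299). Sfn, the 14-3-3 sigma protein of epithelial cells, was at 76.5 ± 8.50 in control and at 153, 144 and 153 on the 8 h arrays (log2 change 0.98 ± 0.09 SE, adjusted p = 4.2e-06). Sfn had stood at 636 at 4 h, so its 8 h level was below that at 4 h, while that of Epas1 was above its 4 h mean of 183.

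The promoters of these 3 genes are shown because, of the upward overshoots with a table entry, they had the largest smaller change of the 2 comparisons (withdrawal and 8 h against control). This ranking takes genes with all 3 arrays at 16 or more in at least 1 group of each comparison, which leaves out S100a3 and Gfra3. Each line gives the 250 bases before the RefSeq start (GRCr8) with every match to the 7 motifs in capitals.

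Plaur, chr1:89181113-89181362, plus strand: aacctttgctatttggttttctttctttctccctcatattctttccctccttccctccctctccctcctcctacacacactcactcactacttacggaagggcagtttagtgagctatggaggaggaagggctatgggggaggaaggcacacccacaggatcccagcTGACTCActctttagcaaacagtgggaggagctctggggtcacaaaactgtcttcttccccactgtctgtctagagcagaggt
Sfn, chr5:151111855-151112104, minus strand: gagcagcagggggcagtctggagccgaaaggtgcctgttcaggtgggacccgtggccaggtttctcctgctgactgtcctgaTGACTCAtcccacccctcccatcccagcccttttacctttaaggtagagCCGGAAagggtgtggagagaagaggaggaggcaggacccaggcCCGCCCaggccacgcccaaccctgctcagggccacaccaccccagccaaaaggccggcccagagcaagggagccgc
Epas1, chr6:13624730-13624979, minus strand: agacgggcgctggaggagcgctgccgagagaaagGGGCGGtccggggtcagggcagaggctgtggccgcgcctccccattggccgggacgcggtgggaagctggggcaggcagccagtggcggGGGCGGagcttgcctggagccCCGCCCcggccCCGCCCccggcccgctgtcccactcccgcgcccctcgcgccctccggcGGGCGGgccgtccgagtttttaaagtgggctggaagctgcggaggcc

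Plaur held 1 AP-1 motif (TGANTCA), 83 bases before the start, and Sfn held 1 AP-1 motif 168 bases before it, 1 ETS motif (CCGGAA) and 1 SP/KLF motif. Epas1 held 5 SP/KLF motifs and no AP-1 or ETS motif, and its window lies within the annotated span of the gene. In the same window 6.34% of promoters in the table held the AP-1 motif and 12.6% the ETS motif. The other motifs were CRE (TGACGTCA, 1.59%), its core TGACG (18.2%, which every CRE contains) and EGR (GCGTGGGCG, 0.478%), all searched on both strands. The windows of the downward overshoots Slc24a4 (chr6:127044220-127044469, plus strand) and Krt12 (chr10:84874266-84874515, minus strand) held none of the 7, and that of Zcchc18 (chrX:105111644-105111893, plus strand) held 2 CRE cores (TGACG) and 1 SP/KLF motif.

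A further 3 genes overshot upward by the rule for named genes. Mpzl2, an epithelial cell adhesion protein, was at 110.3 ± 12.8 in control, 59.8 ± 7.44 after withdrawal and 227 ± 12.9 at 8 h (log2 change 1.05 ± 0.11 SE, adjusted p = 2.82e-05). Slc2a3, the glucose transporter GLUT3, went from 202 ± 11.1 over 121 ± 23.8 to 338 ± 33.1 (1.67-fold above control, adjusted p = 0.00213). RT1-T24-4, an MHC class I gene, was 1.65-fold higher (adjusted p = 0.0111), and its adjusted p was 0.0547 without 8 h replicate 1. MHC class I genes are near copies of each other, so its probe set may read others too.

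Downward overshoots were smaller. Zcchc18, a zinc finger protein, was at 54.5 ± 7.67 in control, 89.3 ± 3.74 after withdrawal and 33.2 ± 4.75 at 8 h, a log2 change of -0.71 ± 0.13 (SE, adjusted p = 0.00239). Fam110b read 246, 223 and 262 in control and 171, 165 and 146 at 8 h (log2 change -0.60 ± 0.10 SE, adjusted p = 0.000868). A second Fam110b probe set was under 16 in both groups and had a log2 change of -0.01. Clcc1, a chloride channel of the endoplasmic reticulum, was at 681 ± 17.1 in control and 509 ± 19.8 at 8 h (adjusted p = 0.000244), while its second probe set had a log2 change of -0.23 (adjusted p = 0.0735). Rflna, a filamin-binding protein, was 1.44-fold lower (adjusted p = 0.0087). Krt12, a keratin, and Slc24a4, a sodium, calcium and potassium exchanger, had log2 changes of -0.74 and -0.64 (adjusted p = 0.0214 and 0.023). Krt12 was not called without 8 h replicate 3 (0.0704), control replicate 1 (0.0558) or control replicate 3 (0.0585). Slc24a4 was not called without 8 h replicate 1 (0.0905) or 2 (0.066), nor without control replicate 1 (0.0606), 2 (0.051) or 3 (0.0576), and its second probe set had an adjusted p of 0.085.

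**Figure D3:**
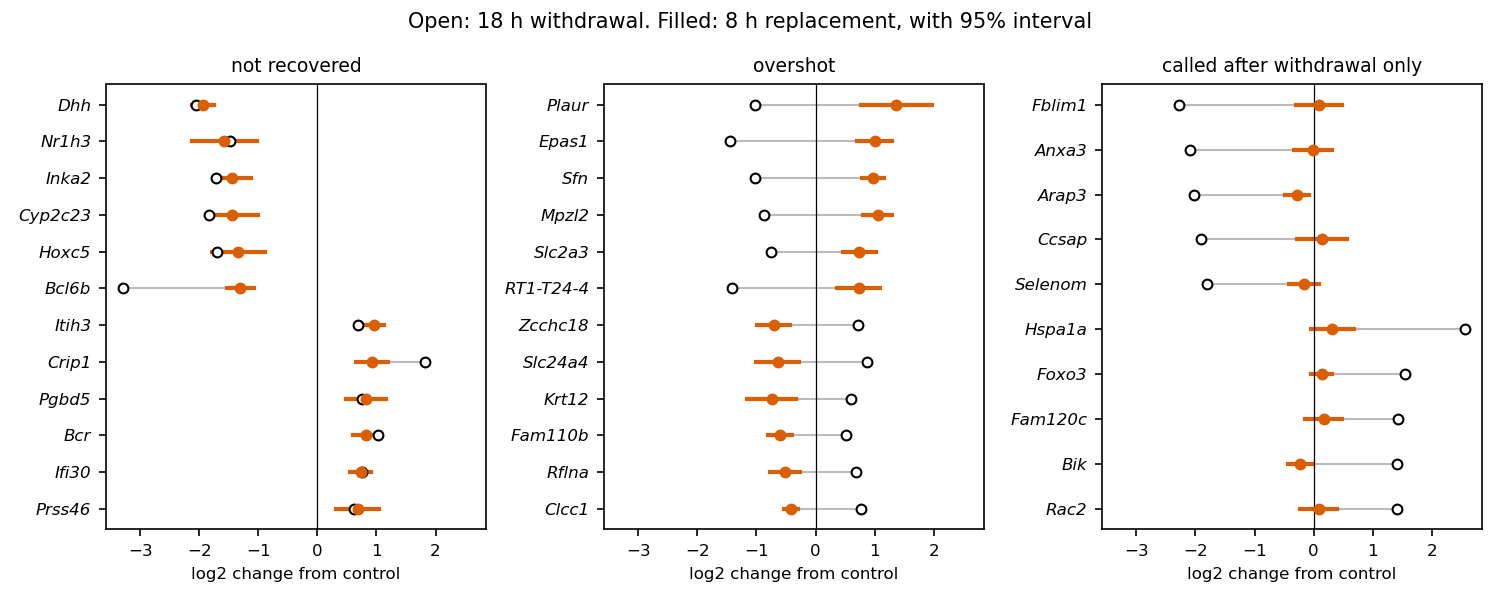
Log2 change from control for the named genes of 3 classes, after 18 h of withdrawal (open circles) and after 8 h of replacement (filled circles with the 95% interval). By the definition of the classes, not recovered genes have both circles on 1 side of 0 and overshot genes have them on opposite sides. In the right panel, of genes chosen as not called at 8 h, the filled circles lie near 0.

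The class with the most probe sets, 1091, was not called after withdrawal. Myh2, a fast skeletal muscle myosin heavy chain, read 8.28, 8.78 and 8.16 in control, 8.12 ± 0.354 after withdrawal and 126, 76.2 and 102 at 8 h. Every 8 h array was over 16 and every control under it, for a log2 change of 3.56 ± 0.20 (SE, adjusted p = 4.23e-08), or 2.63 with the floor. Hbegf, a ligand of the EGF receptor, went from 5.50 ± 1.46 in control to 23.1 ± 5.03 at 8 h (log2 change 2.08 ± 0.29 SE, adjusted p = 0.000281). With the floor at 16 its change was 0.50 with an adjusted p of 0.138, so that call rests on intensities under the low-value level.

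Inhba, the beta A subunit of activin and inhibin, was higher at 8 h. It read 73.4, 96.6 and 31.4 in control and 219.7, 186 and 172 at 8 h, with a log2 change of 1.66 ± 0.40 (SE, adjusted p = 0.0135). Its adjusted p was 0.053 without 8 h replicate 1 and 0.0603 without control replicate 3, where the change was 1.18. Pcdh19, a delta-protocadherin, was 3.14-fold higher (49.9 ± 14.8 in control, 152 ± 15.5 at 8 h, adjusted p = 0.00831). Both had their lowest control value on replicate 3, which also had the lowest mean of mesenchymal marker genes among the controls. With that marker mean as a covariate the log2 changes were 1.25 for Inhba and 1.27 for Pcdh19, and both stayed past the threshold.

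C1ql1, a secreted C1q-like protein, was 2.92-fold higher (8.21 ± 0.933 in control, 24.0 ± 2.94 at 8 h, adjusted p = 1.02e-05), though its change was 0.58 on the log2 scale with the floor at 16. Igsf5, a junctional adhesion molecule, was 2.76-fold higher (adjusted p = 0.000969), and Iqsec3, an exchange factor for ARF GTPases, 2.55-fold higher, from 31.8 ± 5.92 to 80.4 ± 6.75 (adjusted p = 2.93e-05).

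Falls of genes not called after withdrawal were also found. Gatc, a subunit of the mitochondrial enzyme that makes glutaminyl-tRNA, read 75.9, 82.8 and 62.9 in control and 31.8, 29.2 and 20.5 at 8 h. The groups did not overlap, which was required of the largest falls and adds no support. The log2 change was -1.46 ± 0.20 (SE, adjusted p = 0.000281). Tlr2, a receptor of innate immunity, went from 27.3 ± 5.77 to 10.5 ± 0.903 (log2 change -1.36 ± 0.32 SE, adjusted p = 0.0127), or -0.75 with the floor at 16. Asb13, a substrate adaptor of ubiquitin ligases, was 1.95-fold lower (adjusted p = 0.00504), and Nr5a2, the nuclear receptor LRH-1, 1.89-fold lower (25.3 ± 5.34 to 13.2 ± 0.834, adjusted p = 0.00618). The 8 h mean of Nr5a2 was under 16, so the size of its fall is poorly measured. Ethe1, a mitochondrial sulfur dioxygenase, had a log2 change of -0.91 with an adjusted p of 0.0384, which ran from 0.069 to 0.117 when any array of control or 8 h was left out.

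Large withdrawal changes that were not called at 8 h included the heat shock protein gene Hspa1a and Foxo3, a transcription factor held in check by AKT. Hspa1a was at 41.9 ± 7.94 in control, 245 ± 33.0 after withdrawal and 53.1 ± 14.8 at 8 h, with a 95% interval from -0.04 to 0.69 for the log2 change. Foxo3 was at 215 ± 11.3, 630 ± 32.6 and 236 ± 9.86, with an interval from -0.04 to 0.31. Fblim1, a filamin-binding LIM protein, had dropped from 133 ± 12 to 27.9 ± 6.27 and read 147, 139.8 and 138.7 at 8 h (interval -0.29 to 0.48). Anxa3, an annexin, had an interval of -0.33 to 0.31, Rac2 of -0.23 to 0.40, Fam120c, under 16 on all 6 arrays, of -0.15 to 0.49, and Bik, a BH3-only death protein, of -0.43 to -0.02, which lies below 0 although its adjusted p was 0.151.

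Ccsap, a centriole and spindle protein (interval -0.28 to 0.56), and Selenom, a selenoprotein (-0.42 to 0.10), were likewise not called. Arap3, an ARF GTPase-activating protein, was at 774 ± 118 in control and 631 ± 9.77 at 8 h (adjusted p = 0.0735). Without control replicate 2 it was called, with an adjusted p of 0.00456.

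Counts over gene lists are to be read against the 4.88% of named genes that were higher and the 9.22% that were lower. The lists were chosen with earlier results of these data known, so a share above these is no independent support. Of 11 tested genes tied to GDNF in earlier work on rodent spermatogonia, 0 were called higher and 1, Bcl6b, lower at 8 h, against 5 lower and 2 higher after withdrawal. Their median log2 change at 8 h was -0.02, the same as over all named genes. Etv5, an ETS factor needed for self-renewal, was at 766 ± 197 in control and 729 ± 56.0 at 8 h (interval of the log2 change -0.32 to 0.23). Etv4 had an interval from -0.18 to 0.16, Id4 from -0.17 to 0.49, the D-type cyclin gene Ccnd2 from -0.10 to 0.37, and the chemokine receptor gene Cxcr4 from -0.25 to 0.20. Foxo1 (-0.34 to 0.01), Mycn (-0.24 to 0.02), Pou3f1 (-0.06 to 0.46), Egr2 (-0.25 to 0.72) and Fos (-0.97 to 0.45) were not called either, and the 3 Fos arrays of each group differed widely. Lhx1 and the rest of the list did not pass the low-value filter or have no probe set of 1 symbol here.

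Ret, the signalling receptor of GDNF, was lower at 8 h than in control. Its brightest probe set read 4475, 4033 and 4394 in control and 3278, 3296 and 3225 at 8 h, with 3779 ± 172 after withdrawal and 1932 at 4 h. All 8 h arrays lay below all controls, and the log2 change was -0.40 ± 0.04 (SE, adjusted p = 3.19e-05). The other probe sets of Ret had log2 changes of -0.67 (adjusted p = 3.81e-05) and -0.71 (4.48e-06). Gfra1 was under 16 on all 6 arrays and was not tested. Of 19 tested genes of GDNF receptors and proximal signalling, 2 were higher and 2 lower, with a median of 0.02, and 1 in each direction without 8 h replicate 1 or control replicate 1.

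The remaining calls of the receptor list were Gfra3, given above, Gab1 and Pik3cd. The adaptor gene Gab1 was 1.15-fold higher (adjusted p = 0.0165), with 0.0548 and 0.052 without 8 h replicate 1 or 2 and 0.0587 without control replicate 1. The PI3K catalytic subunit gene Pik3cd was 1.52-fold lower (adjusted p = 0.0201), and its adjusted p was 0.0852 and 0.0808 without 8 h replicate 1 or 3 and 0.0691 and 0.0803 without control replicate 1 or 3.

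The feedback genes of ERK were split. Of 12 tested, 3 were higher and 3 lower, with a median log2 change of 0.06. These counts were 2 and 1 without 8 h replicate 1, and 4 and 1 without control replicate 1. Spry4, an inhibitor of receptor tyrosine kinase signalling, read 431, 452 and 446 in control, 150.1 ± 8.16 after withdrawal and 336, 312 and 329.8 at 8 h (log2 change -0.45 ± 0.08 SE, adjusted p = 0.00269), and 28.5% of its withdrawal change was left. Epha2, an ephrin receptor, had overshot to 320.0 ± 4.85 from 243 ± 12.1 in control (adjusted p = 0.000887). Errfi1, an inhibitor of the EGF receptor, had instead risen on withdrawal and not recovered. It was at 1780 ± 108 at 8 h against 1163 ± 97.4 in control (adjusted p = 8.14e-06). With the arrays centred on the median or quantile normalized, 4 of the 12 were higher and 1 lower.

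Of 22 immediate early genes, 0 were higher and 3 lower, with a median of -0.08, where withdrawal had lowered 13. Arc, a cytoskeletal protein gene of the early response, read 77.6, 74.5 and 88.8 in control and 46.1, 46.3 and 45.0 at 8 h (log2 change -0.81 ± 0.10 SE, adjusted p = 7.58e-05), and its withdrawal mean was 45.9 ± 0.526. Zfp36l1, which encodes an RNA-binding protein that promotes mRNA decay, was 1.47-fold lower (adjusted p = 0.00438). Zfp36, of the same family, was 1.18-fold lower (adjusted p = 0.0222). Zfp36 was not called without 8 h replicate 2 (0.0963) or 3 (0.0616), or without control replicate 1 (0.0726) or 3 (0.0953).

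Genes of undifferentiated spermatogonia had 4 of 17 lower and 0 higher, with a median of -0.04. These were Bcl6b, Ret, Itga6 and Sox3. Itga6, the alpha 6 integrin used to enrich these cells, was 1.30-fold lower (adjusted p = 0.00155). Its other probe sets fell further, with log2 changes of -0.60 (adjusted p = 6.88e-05) and -0.57 (1.53e-05). Sox3, a transcription factor of undifferentiated spermatogonia, was at 757 ± 13.2 in control, 999 ± 53.8 after withdrawal and 595 ± 59.6 at 8 h (adjusted p = 0.00264). Of 6 differentiating and meiotic genes 1 was higher, Sycp2 of the synaptonemal complex (1.29-fold, adjusted p = 0.00303), and the 1 tested late germ cell gene, Odf2, was not called (log2 change 0.05).

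Genes of DNA synthesis and division were lower in larger numbers. Of 34 tested DNA replication genes 13 were lower and 1, Ccne2, higher, with a median of -0.16 against -0.02 over all named genes. The lower genes numbered 8 without 8 h replicate 2 or 3 or control replicate 3, and 6 at an adjusted p under 0.01. Tk1, the thymidine kinase of S phase, read 319, 314 and 362 in control and 186, 176 and 193 at 8 h (log2 change -0.84 ± 0.08 SE, adjusted p = 7.5e-06). Its second probe set had a log2 change of -0.55 (adjusted p = 0.0139), and another, dimmer one had 0.01. The rest of the falls were small, such as 1.27-fold for Rpa1, of the single-strand binding complex (adjusted p = 0.00288), and 1.19-fold for Rrm1, of ribonucleotide reductase (adjusted p = 0.00115).

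Of 28 mitosis genes 12 were lower and 0 higher, again with a median of -0.16. Leaving out 8 h replicate 1 or 2 or control replicate 2 or 3 left 7 lower, as did an adjusted p under 0.01. Aurkb, a mitotic kinase, read 1124, 1046 and 1073 in control and 806, 796 and 825 at 8 h (log2 change -0.42 ± 0.06 SE, adjusted p = 0.000299). Kif2c, a kinesin that takes microtubules apart, was 1.30-fold lower (adjusted p = 0.00062) and Nusap1, a spindle protein, 1.25-fold lower (adjusted p = 0.00168). Mki67, the proliferation antigen, was not called (log2 change -0.03). Median centring left 11 DNA replication and 7 mitosis genes lower, and quantile normalization 12 and 8. Of 15 G1 cyclins and CDK inhibitors 5 were lower, among them Cdk4 (1.16-fold, adjusted p = 0.00236), a kinase of the D cyclins, Cdk2 (1.29-fold, 0.0117), a kinase of the E cyclins, and Rb1 (1.21-fold, 0.00863), the retinoblastoma protein that restrains S phase.

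Sterol synthesis genes had 10 of 19 lower and 0 higher, with a median of -0.22, the lowest of the lists. After withdrawal 8 of the 19 had been lower and 1 higher, with a median of -0.12, and 6 of the 10 had not recovered. At 2 h and 4 h of replacement the median log2 change of the list from control had been 0.25 and 0.16. Fdft1, the squalene synthase gene, was at 1286 ± 29.6 in control, 1532 at 2 h and 1016 ± 32.3 at 8 h (log2 change -0.34 ± 0.05 SE, adjusted p = 0.000264). Its second probe set had a log2 change of -0.22 (adjusted p = 0.0586). Dhcr7, the last enzyme of cholesterol synthesis, was 1.34-fold lower (adjusted p = 0.00062) and Fdps, of the farnesyl step, 1.17-fold lower (adjusted p = 0.000682). Cyp51, the lanosterol demethylase, was 1.19-fold lower (adjusted p = 0.000536), and its dimmer probe set had a log2 change of -0.19 (adjusted p = 0.244). The count of 10 was the same after median centring and quantile normalization. It was 8 without 8 h replicate 1 or control replicate 3, 7 at an adjusted p under 0.01, and at most 11 in any setting. Of 13 fatty acid synthesis genes 4 were lower, but 1 without 8 h replicate 3 or at an adjusted p under 0.01, and 2 without control replicate 1 or 3 or with median centring. Elovl6, a fatty acid elongase, led with 951, 846 and 911 in control and 363, 383 and 431 at 8 h (log2 change -1.20 ± 0.07 SE, adjusted p = 3.02e-08).

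**Figure D4:**
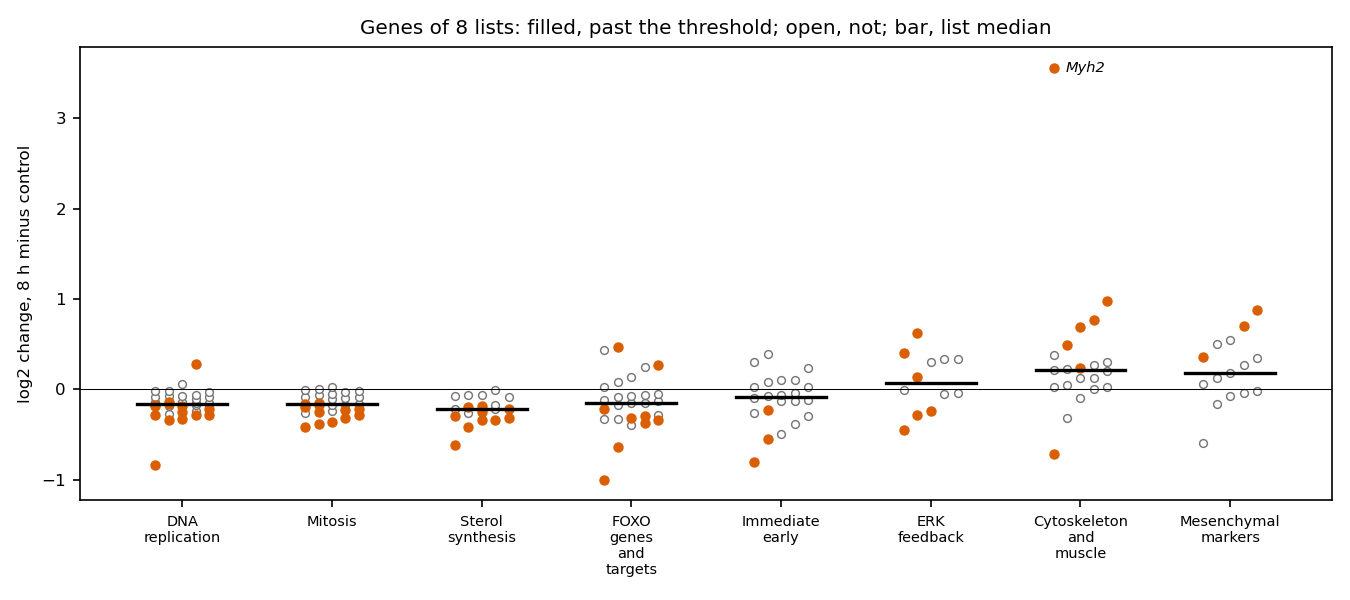
Log2 change at 8 h against control for each tested gene of 8 lists, filled where the adjusted p was under 0.05, with a bar at the list median. The bars of DNA replication, mitosis and sterol synthesis lie at -0.16, -0.16 and -0.22, and Myh2 stands apart at 3.56 in the cytoskeleton and muscle list.

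Of 27 FOXO genes and targets 7 were lower and 2 higher at 8 h, with a median of -0.15, where withdrawal had raised 12 and lowered 2. Cited2, a transcriptional coregulator, was at 503 ± 43.3 in control, 321 ± 6.33 after withdrawal and 322 ± 5.40 at 8 h (adjusted p = 0.000503). Pink1, a mitochondrial kinase, was 1.29-fold lower (adjusted p = 0.00318) and Ccng2, a cyclin tied to cell cycle exit, had overshot to 1.25-fold below control (adjusted p = 0.00324). Gadd45b, a stress response gene, was 1.38-fold higher (adjusted p = 0.000562), and Ddit4, an inhibitor of mTOR signalling, 1.21-fold higher (adjusted p = 0.00133).

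Of 27 glycolysis and hypoxia genes 5 were lower and 2 higher, with a median of -0.12. Tpi1, the triose phosphate isomerase, read 409, 424 and 442 in control and 225, 247 and 243 at 8 h (log2 change -0.83 ± 0.06 SE, adjusted p = 2.64e-07), and Hk2, a hexokinase, was at 755 ± 101 in control and 499.9 ± 31.2 at 8 h (adjusted p = 0.00101). Pgk1, a glycolytic kinase, was 1.24-fold lower (adjusted p = 0.00149), although its other probe set had a log2 change of -0.20 (adjusted p = 0.352). Vegfa, the endothelial growth factor, was the reverse, with 208, 223 and 208 in control and 362, 389 and 354 at 8 h (log2 change 0.79 ± 0.12 SE, adjusted p = 0.00082). Slc2a3 was the other higher gene.

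BMP and TGF-beta response genes had 3 of 13 higher and 1 lower, with a median of 0.08. Besides Inhba, these were Smad7, an inhibitor of the pathway (36.5 ± 3.90 in control, 62.0 ± 7.20 at 8 h, adjusted p = 0.00583), and Skil, a SMAD corepressor (1.30-fold higher, adjusted p = 0.000414). Id3, a target of BMP signalling, stayed 1.56-fold lower, at 546 ± 33.2 against 851 ± 30.2, with 51.7% of its withdrawal change left. Of 4 genes of the plasminogen activator system 2 were higher, Plaur and Lrp1, an endocytic receptor (1.74-fold, adjusted p = 0.00166). Of 12 S100 proteins and annexins 3 were higher and 1 lower, and Anxa5 had overshot to 1205 ± 63.7 from 939 ± 67.1 (adjusted p = 0.000581).

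Of 21 cytoskeleton and muscle genes 6 were higher and 1 lower, with a median of 0.21. Csrp1, a LIM protein of actin bundles, was the lower gene (421, 394 and 403 in control, 218, 279.9 and 244 at 8 h, adjusted p = 6.61e-05). Besides Myh2 and Sfn, the higher genes included Flna, the filamin that crosslinks actin (1.61-fold, adjusted p = 0.0214). Flna was not called without 8 h replicate 1 (0.0717) or 2 (0.0582), or without control replicate 1 (0.0906) or 3 (0.088). The higher genes numbered 2 without 8 h replicate 1 and 3 without 8 h replicate 3, control replicate 1 or control replicate 3.

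Calls in both directions were also found among stress, ribosome, MHC and cell death genes. Of 18 heat shock genes 1 was higher and 1 lower, and Hspb1, a small heat shock protein, stayed at 881 ± 13.2 against 1553 ± 141 in control (adjusted p = 1.48e-05), with 948 ± 36.8 after withdrawal. Amino acid response genes had 2 of 26 higher and 3 lower, with Psat1, of serine synthesis, 1.11-fold lower (adjusted p = 0.00561). Ribosome biogenesis genes had 4 of 48 higher and 3 lower, with a median of 0.00. MHC class I and interferon genes had 2 of 18 higher and 3 lower, among them Tap2, of peptide loading (28.1 ± 2.51 to 18.8 ± 2.06, adjusted p = 0.00595). Cell death and survival genes had 1 of 17 in each direction. Single arrays moved these counts: without 8 h replicate 1, 0 genes of the heat shock, amino acid, ribosome biogenesis, MHC and cell death lists were higher. Without 8 h replicate 3, 1 amino acid response gene was higher and 1 lower, ribosome biogenesis had 1 and 0, MHC and interferon 1 and 2, and cell death 0 and 0. Without 8 h replicate 2, ribosome biogenesis had 1 higher and 0 lower and cell death 0 of each, and without control replicate 3 the cell death list again had 0 of each.

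Markers of other cells were checked in the same arrays. Of 8 tested Sertoli markers 3 were lower, Dhh, Gata1 and Ctsl, and 1, Clu, higher. The summed intensity of the list was 9701 to 10279 in control and 9115 to 9447 at 8 h, without overlap (exact two-sided permutation test, p = 0.1). A sum weighs bright genes most. After withdrawal the mean sum was higher, at 11078, while the mean log2 intensity of the tested members was lower. That mean was 7.379 in control, 7.075 after withdrawal and 7.075 at 8 h. Of 14 Sertoli markers with a probe set 6, including Amh, Gata4, Inha and Inhbb, were under 16 on all 6 arrays. Of 15 tested mesenchymal markers 3 were higher, Cdh11, Col5a2 and Fn1, and 0 lower, with a median of 0.18. Each lost its call when either of control replicates 1 and 3 or 8 h replicates 1 and 2 was left out, with adjusted p-values up to 0.156, 0.149 and 0.192. The summed mesenchymal intensity was 5506 to 7417 in control and 6731 to 8015 at 8 h, which overlap, and 9 of the 24, including Lox, Postn and Pdgfrb, were under 16.

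Only Acta2 of the Leydig and peritubular markers was over 16, with Star, Cyp11a1, Cyp17a1 and Insl3 under it, and it was not called (adjusted p = 0.262). Of the immune, blood and endothelial markers Kdr, a receptor of VEGF, was lower (21.8 ± 1.99 to 11.5 ± 0.685, adjusted p = 3.9e-05), with its 8 h mean under 16. Ptprc, Cd68 and Hbb were under 16. Germ line markers had 1 of 7 higher, Tdrd1 of the piRNA pathway (1.18-fold, adjusted p = 0.00273), and 1 lower, Ret, and their sum was 19653 to 21209 in control and 19963 to 20864 at 8 h. What part these markers have in the calls for Dhh, Inhba, Plaur and the cytoskeleton list was not tested, except that with the mesenchymal mean as a covariate the log2 change of Plaur was 1.08 and 5 cytoskeleton genes were higher.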

How the data were processed

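Total RNA from 15 cultures, 3 in each of 5 groups named in the sample titles, was hybridized to single-colour Affymetrix rat arrays. The authors deposited 1 intensity per probe set and array on a linear scale; the tools named in the submitters' processing notes are GCRMA and Partek 6.3, with no role or order. GCRMA corrects background by probe sequence, so low intensities depend on its estimate. The build behind the probe sets is not given in the sources used here.

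Intensities were taken to log2 without further normalization. Tests left aside 57 Affymetrix controls and took probe sets with log2 intensity of at least 4 (16) on at least 3 of 15 arrays. Names came from the platform annotation, updated by gene identifier through the RefSeq gene table of GRCr8: 1 symbol was given for 20843 probe sets, of which 20772 matched, more than 1 for 425 and no symbol for 9831. A gene was read from its brightest tested probe set. All 15 arrays entered 1 fit in limma 3.58.1 (R 4.3.3; lmFit, eBayes with intensity trend), two-sided, with Benjamini-Hochberg adjustment at 0.05. SD is over 3 arrays on the intensity scale and SE that of the log2 change.

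Named genes were the 10 largest rises and falls among called genes whose groups did not overlap. Also named were the 6 largest not recovered and overshot each way. The 5 largest each way of genes called in 1 comparison only were added. All of these had every array of a group at 16 or more. The GDNF-tied genes and up to 4 called members of each of 28 lists were named as well. Lists and genes were chosen with earlier results of these data known. Promoters came from the RefSeq table of GRCr8, which held 7672 of the 9005 tested genes. Exact permutation tests went over every split of the arrays in Python 3.11.15, and scipy 1.17.1 gave the t quantiles of the 95% intervals. The steps were tested on simulated data. Alternatives covered filters, floor, scaling, variance model, threshold, probe set choice, a marker covariate and arrays left out.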

Additional observations from a re-analysis of the deposited data

Results flagged for a closer look

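Hybridization spikes, which are added to each sample before hybridization and take no part in the comparison, had a mean log2 intensity of 9.82 ± 0.222 in control and 10.323 ± 0.103 at 8 h (SD, n = 3), and the arrays did not overlap (exact two-sided permutation test, p = 0.1, the smallest possible). The 3 prime minus 5 prime difference of GAPDH, a measure of RNA integrity, was -0.197 ± 0.010 in control and -0.156 ± 0.021 at 8 h on the log2 scale, again without overlap (exact p = 0.1). The poly-A spikes, the 5S control and the 3 prime differences of beta-actin and hexokinase overlapped between the groups. The part of these measures in the gene results was not tested.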

How the results depend on the processing

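With the spread taken from only the groups compared, 1241 probe sets were called at 8 h, 406 not recovered and 90 overshot; the setting has fewer samples. At an adjusted p under 0.01 these were 889, 301 and 60, with 528 not called after withdrawal. The overshot count was 95 without replicate 1 of control, withdrawal and 4 h together and 107 with no low-value filter, and the cause was not tested. Leaving out 1 array at a time gave 101 to 156 overshot probe sets and 710 to 1271 called at 8 h only. With the replicate number as a block there were 2047 calls, 737 not recovered, 169 overshot and 1141 called at 8 h only. Deviations of same-numbered control and 8 h arrays were hardly correlated (0.00978, 0.0587 and -0.0383). The first component of all deviations from group means had the same sign for replicate 1 in every group. It was -0.323 in control, -0.487 after withdrawal, -0.106 at 2 h, -0.394 at 4 h and -0.040 at 8 h. Replicates 2 and 3 had both signs. Whether the numbers mark a shared block was not tested. Of the named genes only Bcl2l2 lost its call under the block. Of 2935 values of 135 named genes, 2716 kept direction and side of the threshold, 217 lost a call, 2 gained 1 and 0 reversed; 35 genes lost a call somewhere, 30 of them on leaving out 1 array. Genes under 16 on control arrays are limited by signal over background.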

Other observations

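Some gene families outside the lists were looked at after their values had been seen, and are given as values. Over all named genes 4.88% were higher and 9.22% lower at 8 h. Of 7 tested HOX genes 3 were lower at 8 h and 0 higher, with a median log2 change of -0.30, and all 3 had not recovered. Hoxc4 read 1699, 1649 and 1763 in control, 459.5 ± 19.8 after withdrawal (SD, n = 3) and 855.3, 943.5 and 835.8 at 8 h, a log2 change of -0.96. Hoxc9 was at 282.7 ± 35.6 in control and 210.9 ± 3.20 at 8 h (log2 change -0.42), and Hoxc5 is given in the report. The 4 uncalled members Hoxc8, Hoxa5, Hoxd8 and Hoxa3l1 were at 21.53, 61.26, 94.51 and 49.86 at 8 h against 26.62, 54.4, 82.31 and 47.68 in control.

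Of 19 kinesins, motor proteins of which many serve the spindle, 8 were lower and 0 higher, with a median of -0.14; Kif2c, Kif11 and Kif20a are also on the mitosis list. Of 9 cathepsins, lysosomal proteases, 3 were lower and 0 higher, with a median of -0.17. Of 40 cytosolic ribosomal proteins, without pseudogenes and paralogs, 0 were higher and 1, Rpl3, lower, with a median of 0.00. Of 34 subunits of respiratory complex I 3 were lower and 0 higher, and of 33 proteasome subunits 4 were lower and 0 higher. Solute carriers had 9 of 155 higher and 14 lower, with a median of -0.03. The shares of lower genes in complex I, the proteasome and the solute carriers were near the 9.22% of all named genes.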
